A study of Mus musculus with 24 samples.

Results

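Interleukin 6, oncostatin M, their receptor chains and the factors downstream of them were followed in the liver and lung of mice injected with mammary carcinoma cells or sham-injected. The set holds 10 genes: the ligands Il6 and Osm, the receptor chains Il6ra, Il6st, Osmr and Lifr, the transcription factors Stat3, Cebpb and Cebpd, and the inhibitor Socs3. Every probe annotated to these symbols was taken, which gave 21 of the 45281 probes on the array and 10 of 19057 genes that have a probe with a single symbol. The series describes the animals as resistant to obesity and sets high-fat against control diet within an injection. RNA came from female BALB/c mice aged 22 weeks, in 8 groups of 3 arrays. For lung and for liver, these were mice injected with 4T1 cells on a high-fat diet, mice injected with 4T1 cells on a control diet, sham-injected mice on a high-fat diet and sham-injected mice on a control diet. The 4T1 line is a mouse mammary carcinoma line, which was placed into the mammary fat pads after 16 weeks of diet, and tissue was taken 14 days later with each mouse kept on its diet. The sources used here do not say what the sham injection held, whether the 3 arrays of a group came from separate mice, or on which slides they were run. The p-values therefore measure the spread between these arrays, which may be technical, and their number limits the precision.

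Cytokines of the interleukin 6 family bind a ligand-specific receptor chain that pairs with the shared signalling chain encoded by Il6st. Janus kinases on the receptor then phosphorylate STAT3, which enters the nucleus and switches on target genes, one of which is Socs3, whose product binds the receptor and shuts the signal down. In hepatocytes this pathway, together with C/EBP-beta and C/EBP-delta, drives the acute phase genes, and in lung the receptors are found on epithelial, stromal and immune cells. Oncostatin M is made largely by neutrophils, macrophages and T cells, and in mice it acts mainly through the receptor chain encoded by Osmr.

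RefSeq promoter windows of build GRCm38.p6, running from 250 bases before to 50 bases after the annotated start, were at hand for 8 of the 10 genes. They were searched on both strands for the STAT motif TTCNNNGAA and the C/EBP motif TTNNGCAA, in which N is any base. The motifs do not overlap each other in these windows. The windows of Socs3 and Il6 are shown because among the genes searched they alone held a match, which is in capitals. The Socs3 window lies at chr11:117969317-117969616 on the minus strand, with TTCTTAGAA at positions -154 to -146 from the start. The Il6 window lies at chr5:30012864-30013163 on the plus strand, with TTGTGCAA at positions -128 to -121.
Socs3: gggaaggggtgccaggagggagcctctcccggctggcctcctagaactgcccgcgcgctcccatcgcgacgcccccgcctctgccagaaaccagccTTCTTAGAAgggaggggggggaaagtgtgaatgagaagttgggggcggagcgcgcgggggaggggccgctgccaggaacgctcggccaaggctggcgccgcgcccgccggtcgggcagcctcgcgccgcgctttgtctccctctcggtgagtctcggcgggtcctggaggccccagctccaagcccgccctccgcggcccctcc
Il6: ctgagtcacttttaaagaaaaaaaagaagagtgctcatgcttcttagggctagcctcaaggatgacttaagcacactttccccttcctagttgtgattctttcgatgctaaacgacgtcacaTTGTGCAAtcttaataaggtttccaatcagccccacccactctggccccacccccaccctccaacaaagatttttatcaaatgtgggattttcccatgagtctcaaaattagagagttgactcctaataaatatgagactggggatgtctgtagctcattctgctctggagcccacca
The STAT motif occurred in 2726 of 32851 promoter windows (8.3%) and the C/EBP motif in 3547 (10.8%), so a match is common and describes letters only.

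Signals are given as log2 intensity after background correction and quantile normalization within a tissue, and a probe is called above background on an array when its detection p is under 0.05. Sham and 4T1 arrays differed as a whole. Probes above background made up 40.4 to 41.5% on 4T1 and 34.0 to 36.1% on sham arrays in liver, and 43 to 44.8% on 4T1 and 51.0 to 52.4% on sham arrays in lung. Replicates in liver were closer together in the 4T1 groups (SD 0.14 and 0.16) than in the sham groups (0.27 and 0.28). Because quantile normalization gives each array the same distribution, a change is relative to the other transcripts. With arrays scaled by their medians instead, the median of all genes for 4T1 minus sham moved to 0.73 on the high-fat and 0.66 on the control diet in liver, and to -0.48 and -0.50 in lung, and the balance of the calls moved with it. Under median scaling 98.2% (high-fat) and 97.3% (control diet) of liver calls were increases, where quantile normalization gave 43.1% and 47.3%. For lung calls these shares were 12.8% and 12% under median scaling and 41.9% and 39% under quantile normalization. A median-scaled change of a gene is therefore to be read beside the all-gene median of its comparison. The tissues carried their defining transcripts. Hepatocyte markers averaged 13.3 to 13.5 on liver arrays, where the surfactant genes Sftpc, Sftpb and Sftpa1 were never above background, and the alveolar list averaged 13.6 to 14.3 on lung arrays. Of 10 hepatocyte markers 8 were also measured in lung, at 8.48 to 9.95 on 4T1 and 9.72 to 10.6 on sham arrays. Markers of mammary carcinoma epithelium averaged 8.18 to 8.37 on 4T1 and 7.64 to 7.92 on sham liver arrays, and 10.48 to 10.78 on 4T1 and 10.51 to 10.87 on sham lung arrays. In liver Krt8 (1.46 and 1.03) and Krt18 (0.72 and 0.61) rose on the high-fat and control diets, and Cdh1 on the control diet alone (0.38). Krt14 and Krt7 were called on neither diet, and Krt19 and Krt5 were not above background on any liver array. The epithelial marker Epcam was not above background on any of the 24 arrays.

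After 4T1 injection 7 (high-fat) and 8 (control diet) of 10 members were called in liver, and 6 of 9 in lung on each diet. The lung counts lie near the share of all genes given below. In liver on the high-fat diet, 6 of the 10 genes rose and a single gene, Lifr, fell at an adjusted p under 0.05 in limma, where 48.8% of all 10906 genes were called, 21.0% as higher and 27.7% as lower. Control-diet livers had 6 members higher and 2, Il6ra and Lifr, lower, where 43.3% of genes were called, 20.5% as higher and 22.8% as lower. Liver Osm and Il6st were above background only on 4T1 arrays and so entered the test only through the group where they were high. Over the 8 genes above background in both groups, 4 were called higher and 1 lower on the high-fat diet, and 4 higher and 2 lower on the control diet, with median changes of 0.42 and 0.14 beside -0.06 and -0.03 over all genes. With Osm and Il6st at their fitted values, which are no measured size, the medians of the 10 genes were 0.81 and 0.61. In lung 9 of the genes were measured, of which on the high-fat diet 5 rose with 1 lower (53.9% of 12747 genes called, 22.6% higher and 31.3% lower) and on the control diet again 5 rose with 1 lower (52.9% called, 20.6% higher and 32.2% lower). The lung medians were 0.25 and 0.38, beside -0.08 and -0.09 over all genes. Socs3 and Osm rose in both tissues on both diets and kept these calls under median scaling, as did Stat3 and Osmr in liver. Il6st kept its liver calls as well. Nearly all liver calls were increases under that scaling, so a kept increase in liver is no check. Relative to the all-gene medians, the liver changes on the high-fat and control diets were 1.85 and 2.31 for Socs3, and 1.54 and 1.46 for Stat3. They were 1.29 and 1.05 for Osmr and, as fitted, 1.42 and 1.45 for Osm and 0.62 and 0.27 for Il6st. For Osm and Il6st in liver the way they entered the test fixed the direction, so these calls add no support.

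**Figure D1:**
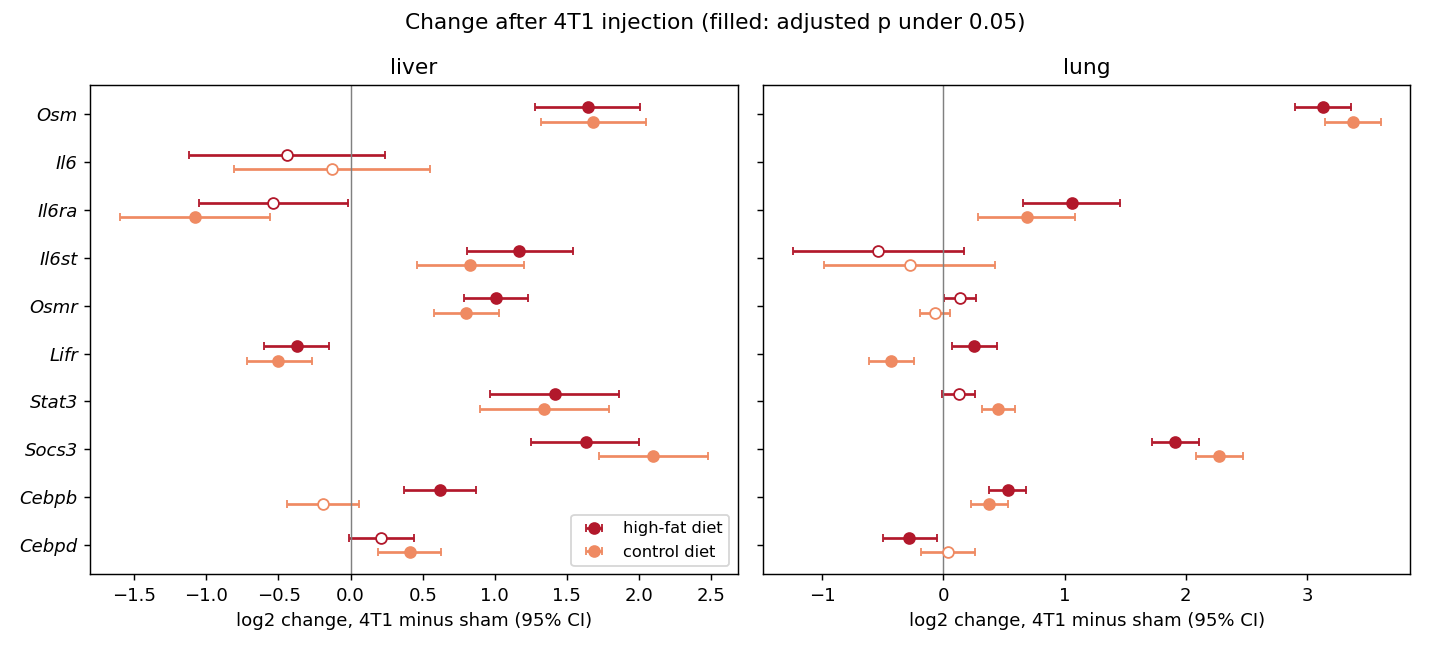
Log2 change for 4T1 minus sham (x axis) of each gene of the set (rows) in liver (left) and lung (right), with 95% confidence intervals from limma, on the high-fat diet (dark) and the control diet (light). Filled points have an adjusted p under 0.05. Osm and Socs3 lie right of 0 in both tissues, and Il6ra lies left of 0 in liver and right of it in lung. Under median scaling several genes change sign. In liver these are Il6ra on the high-fat diet (0.38), Lifr (0.65 and 0.38) and Cebpb on the control diet (0.45). In lung they are Lifr (-0.24), Osmr (-0.28) and Stat3 (-0.26) on the high-fat diet. Cebpb (-0.01) and Cebpd (-0.45) do so in lung on the control diet. The all-gene medians under that scaling were 0.73 (high-fat) and 0.66 (control diet) in liver, and -0.48 and -0.50 in lung.

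Socs3, the feedback inhibitor of the pathway, was among the most changed members in either tissue. In lung its 4T1 arrays of the high-fat diet read 12.51, 12.46 and 12.60, against 10.72, 10.58 and 10.53 on the sham arrays. Control-diet lungs read 12.60, 12.51 and 12.63 after 4T1 injection, against 10.39, 10.41 and 10.11 after sham injection. Every 4T1 array lay above every sham array, and the 4T1 arrays of both diets fell within a narrow band. The lung increase was 1.91 ± 0.0885 (log2, SE, n = 3 per group) on the high-fat diet and 2.27 ± 0.0885 on the control diet, with adjusted p = 2.55e-08 and 5.83e-09, which is 3.77-fold and 4.84-fold. In liver its 4T1 arrays of the high-fat diet read 10.13, 9.75 and 9.93, against 8.27, 8.14 and 8.53 on the sham arrays. Control-diet livers read 10.40, 10.37 and 10.50 after 4T1 injection, against 8.59, 8.48 and 7.92 after sham injection. The groups did not overlap here either. The liver increase was 1.63 ± 0.171 on the high-fat diet and 2.10 ± 0.171 on the control diet, with adjusted p = 4.3e-05 and 8.13e-06, which is 3.09-fold and 4.28-fold. The array carries 1 probe for Socs3, which was above background on all 24 arrays.

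Markers of neutrophils, a cell type in which several of these genes are active, moved with the same contrast. All 14 measured genes of a list of 16 neutrophil markers rose in both tissues on both diets. Of all genes 21.0% and 20.5% were called higher in liver on the high-fat and control diets, and 22.6% and 20.6% in lung. In lung the mean log2 intensity of the markers was 13.98 to 14.13 on 4T1 arrays against 8.57 to 9.13 on sham arrays. In liver it was 11.84 to 12.25 on 4T1 arrays against 5.64 to 6.08 on sham arrays, near the detection limit. Markers that entered the test only through 4T1 liver arrays could hardly be called lower there, and their number was not counted. The list shares Lcn2 with the acute phase list used further below. The neutrophil collagenase gene Mmp8 was not above background on any array. Markers of macrophages and Kupffer cells averaged 9.81 to 10.01 on 4T1 liver arrays against 9.16 to 9.43 on sham liver arrays, and in lung they averaged 8.38 to 8.66 on 4T1 arrays against 8.48 to 8.70 on sham arrays. The part of these cells in the changes of Socs3, Osm and the other genes was not tested, and in whole tissue a change in the number of cells and in RNA per cell cannot be told apart.

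Osm, the oncostatin M gene, showed the greatest increase of the set in lung. The 4T1 lung arrays of the high-fat diet read 11.02, 10.98 and 10.93, against 7.86, 8.01 and 7.68 on the sham arrays. The control-diet lungs read 10.92, 10.90 and 11.10 after 4T1 injection, against 7.68, 7.71 and 7.40 after sham injection. The gap between the groups was many times the spread within them. The increase was 3.13 ± 0.104 on the high-fat diet and 3.38 ± 0.104 on the control diet, with adjusted p = 1.8e-09 and 8.78e-10, which is 8.74-fold and 10.4-fold. In lung a dimmer second Osm probe had fitted changes of 1.53 ± 0.134 and 1.18 ± 0.134. It was above background on all 4T1 lung arrays and on no sham lung array. It thus entered the test only through the group where it was high, so these values are no measured sizes and add no support. In liver Osm read 6.95, 6.90 and 6.94 on the 4T1 arrays of the high-fat diet and 6.74, 6.88 and 7.05 on those of the control diet. On all 6 sham liver arrays the probe was not above background. Osm in 4T1 liver was thus higher by a bound of at least 2.49-fold (high-fat diet) and at least 2.43-fold (control diet), with adjusted p = 3.14e-05 and 2.96e-05. This bound sets the 4T1 mean against the lowest signal among probes above background on each sham array, or the probe's own signal where that is higher.

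Il6 itself was close to the limit of the arrays. In lung its single probe was not above background on any array. In liver it was above background on 2 of 6 4T1 arrays (5.38 and 5.34) and on 3 of 6 sham arrays (5.68, 5.83 and 6.02). The liver differences were -0.44 (95% confidence interval -1.12 to 0.24) on the high-fat diet and -0.13 (-0.81 to 0.55) on the control diet, with adjusted p = 0.259 and 0.764. A change of the Il6 transcript within these intervals was not detectable here, and circulating interleukin 6 was not measured.

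**Figure D2:**
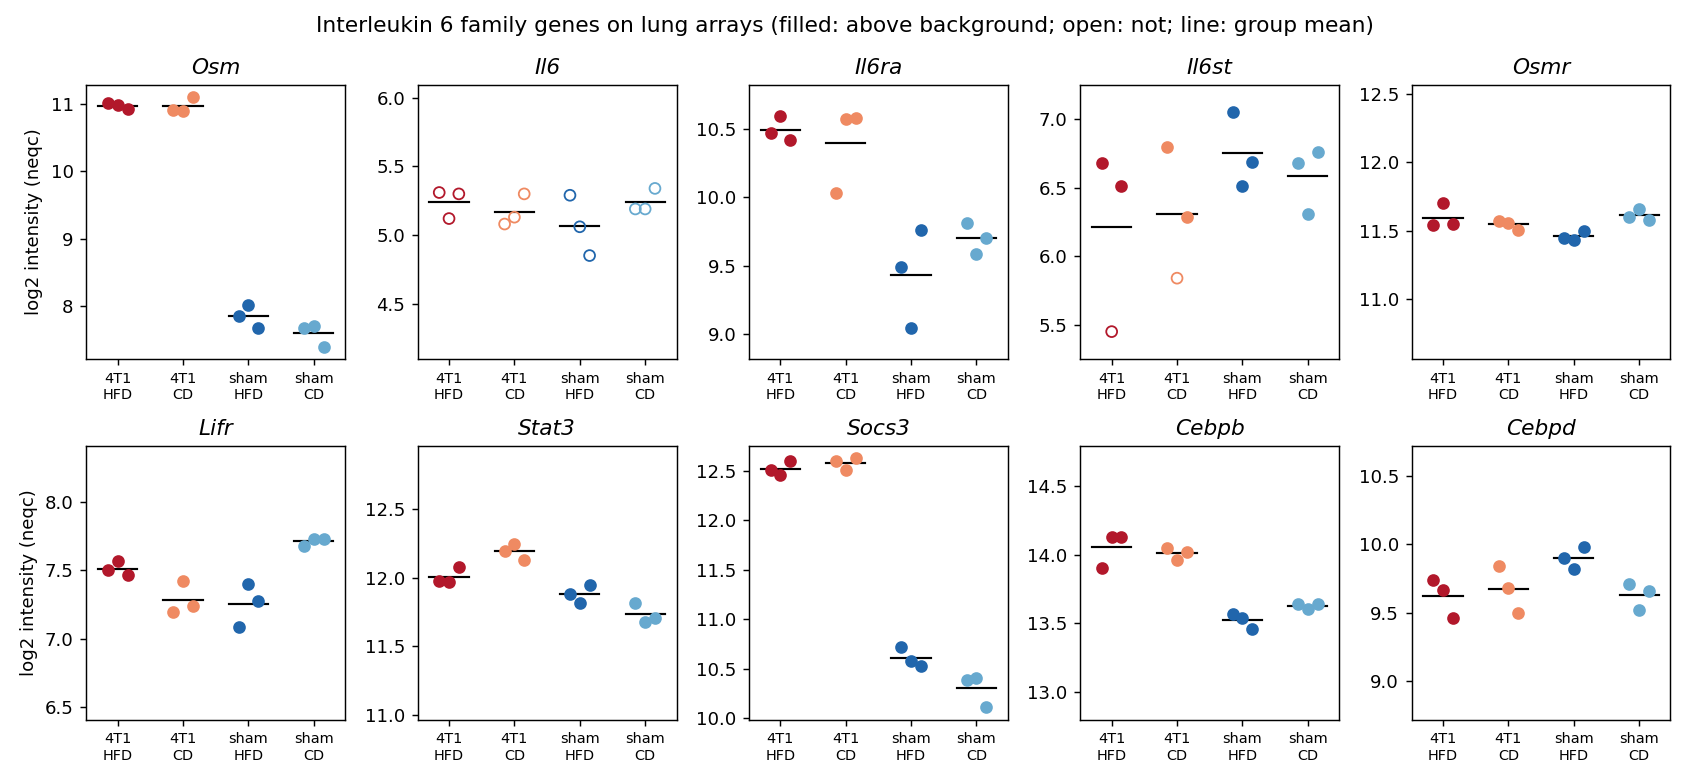
Log2 intensity (y axis, a separate range per panel) of each gene's brightest probe on the 12 lung arrays, by group (x axis, HFD high-fat diet, CD control diet), with points for arrays, open where not above background, and lines for group means. Osm and Socs3 separate the 4T1 from the sham arrays, while Il6 is open throughout.

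Il6ra, which encodes the ligand-binding interleukin 6 receptor, rose in lung on both diets and fell in liver on the control diet under quantile normalization. In lung it read 10.47, 10.59 and 10.42 on the 4T1 arrays of the high-fat diet, against 9.49, 9.05 and 9.76 on the sham arrays. Control-diet lungs read 10.03, 10.57 and 10.58 after 4T1 injection, against 9.81, 9.59 and 9.70 after sham injection. The lung groups did not overlap on either diet. The lung increase was 1.06 ± 0.18 (adjusted p = 0.000575) on the high-fat diet and 0.69 ± 0.18 (adjusted p = 0.00807) on the control diet, where median scaling left 0.20 and no call (adjusted p = 0.298). That 0.20 stands beside -0.50 over all genes, or 0.70 relative to it. In liver Il6ra read 9.10, 9.43 and 9.55 on the 4T1 arrays of the high-fat diet, against 10.07, 9.87 and 9.75 on the sham arrays. Control-diet livers read 9.33, 9.52 and 8.91 after 4T1 injection, against 9.77, 10.60 and 10.63 after sham injection. Again no 4T1 array reached the sham values of its diet. The liver decrease was -1.08 ± 0.235 on the control diet (adjusted p = 0.00407), where median scaling gave -0.29 (adjusted p = 0.151), beside 0.66 over all genes, or -0.95 relative to it. The high-fat difference of -0.54 missed the threshold (adjusted p = 0.0806) and was 0.38 under median scaling, beside 0.73 over all genes, or -0.35 relative to it. Other Il6ra probes in lung gave 0.53 and 0.76 on the high-fat diet and 0.01 and 0.41 on the control diet, none of them called. In liver the dimmer probe ILMN_1216057 averaged 6.09 after 4T1 and 6.45 after sham injection on the high-fat diet, and 5.77 and 6.73 on the control diet. For ILMN_2706430 these means were 5.88 and 5.69 on the high-fat diet, the other way from the brightest probe, and 5.75 and 6.27 on the control diet.

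Osmr, the oncostatin M receptor chain, rose in liver, where Il6st, the shared signalling chain, was above background only on 4T1 arrays. Il6st read 5.96, 5.89 and 5.29 on the 4T1 liver arrays of the high-fat diet and 5.32, 5.48 and 5.74 on those of the control diet. It was not above background on any sham liver array, where its values ran from 4.50 to 4.76. The fitted increase was 1.17 on the high-fat diet (adjusted p = 0.000283), with a bound of at least 1.07-fold, and 0.83 on the control diet (adjusted p = 0.0026), where the 4T1 mean lay too near the detection limit for a bound. The lung differences of Il6st were not called, at -0.54 and -0.27 (adjusted p = 0.178 and 0.497), with 4T1 values from 5.45 to 6.80 and sham values from 6.31 to 7.05. The probe was above background on 2 of 3 4T1 lung arrays of each diet. Under median scaling the differences were -0.88 (adjusted p = 0.0132) and -0.6 (adjusted p = 0.0666), beside -0.48 and -0.50 over all genes. With a replicate block the high-fat difference of -0.54 was called (adjusted p = 0.0275). A second Il6st probe was not above background on any array.

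Osmr rose in liver with little spread. It read 8.33, 8.30 and 8.37 on the 4T1 arrays of the high-fat diet, against 7.33, 7.51 and 7.13 on the sham arrays. Livers of the control diet read 8.21, 8.36 and 8.22 after 4T1 injection, against 7.47, 7.36 and 7.55 after sham injection. The groups lay well apart. The increase was 1.01 ± 0.1 on the high-fat diet (adjusted p = 3.09e-05) and 0.80 ± 0.1 on the control diet (adjusted p = 0.000148). In lung, where the same probe read 11.4 to 11.7 on every array, the differences were 0.14 and -0.07 (adjusted p = 0.0622 and 0.362). Under median scaling they were -0.28 and -0.51, both called, beside -0.48 and -0.50 over all genes, or 0.20 and -0.01 relative to these. The other Osmr probes were rarely or never above background and were not tested.

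Lifr, the receptor chain for leukaemia inhibitory factor, gave different answers by probe. Its brightest probe in liver read 6.91, 7.00 and 6.85 on the 4T1 arrays of the high-fat diet, against 7.32, 7.23 and 7.32 on the sham arrays. Livers of the control diet read 6.96, 7.24 and 7.16 after 4T1 injection, against 7.45, 7.78 and 7.63 after sham injection. No 4T1 array reached the sham values of its diet. This probe fell, by 0.37 (adjusted p = 0.0118) and 0.50 (adjusted p = 0.00289) on the log2 scale. Under median scaling it rose by 0.65 and 0.38, beside 0.73 and 0.66 over all genes, or -0.08 and -0.28 relative to these. A dimmer probe, ILMN_1242960, rose in liver by 0.72 ± 0.194 on the high-fat and 0.54 ± 0.194 on the control diet under quantile normalization, and was above background on 0 of 3 high-fat and 2 of 3 control-diet sham arrays. Another, ILMN_2829015, averaged 5.77 after 4T1 and 5.45 after sham injection in high-fat liver, and 5.49 and 5.68 in control-diet liver. It was above background on 1 of 3 high-fat and 2 of 3 control-diet sham liver arrays. In lung the brightest probe fell by 0.43 on the control diet (adjusted p = 0.0016), with 7.20, 7.42 and 7.24 after 4T1 injection against 7.68, 7.73 and 7.73 after sham injection. On the high-fat diet it rose by 0.25 (adjusted p = 0.0257), with 7.50, 7.57 and 7.47 after 4T1 injection against 7.09, 7.40 and 7.28 after sham injection. Under median scaling this change was -0.24, beside -0.48 over all genes. The other probes in lung were lower on both diets, at -0.39 and -0.39 on the high-fat diet (not called) and -0.81 and -0.79 on the control diet. Both were above background on every sham lung array. On 4T1 lung arrays of the high-fat and control diets ILMN_1242960 was above background on 0 of 3 and 2 of 3. For ILMN_2829015 these counts were 1 of 3 and 0 of 3, so the falls of these probes are no measured sizes. The direction of Lifr is therefore not settled by these probes. Lung arrays also differed in hepatocyte transcripts, of which 5 of 8 fell on the high-fat and 6 of 8 on the control diet; their part in the lung values of Lifr and Il6ra was not tested.

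**Figure D3:**
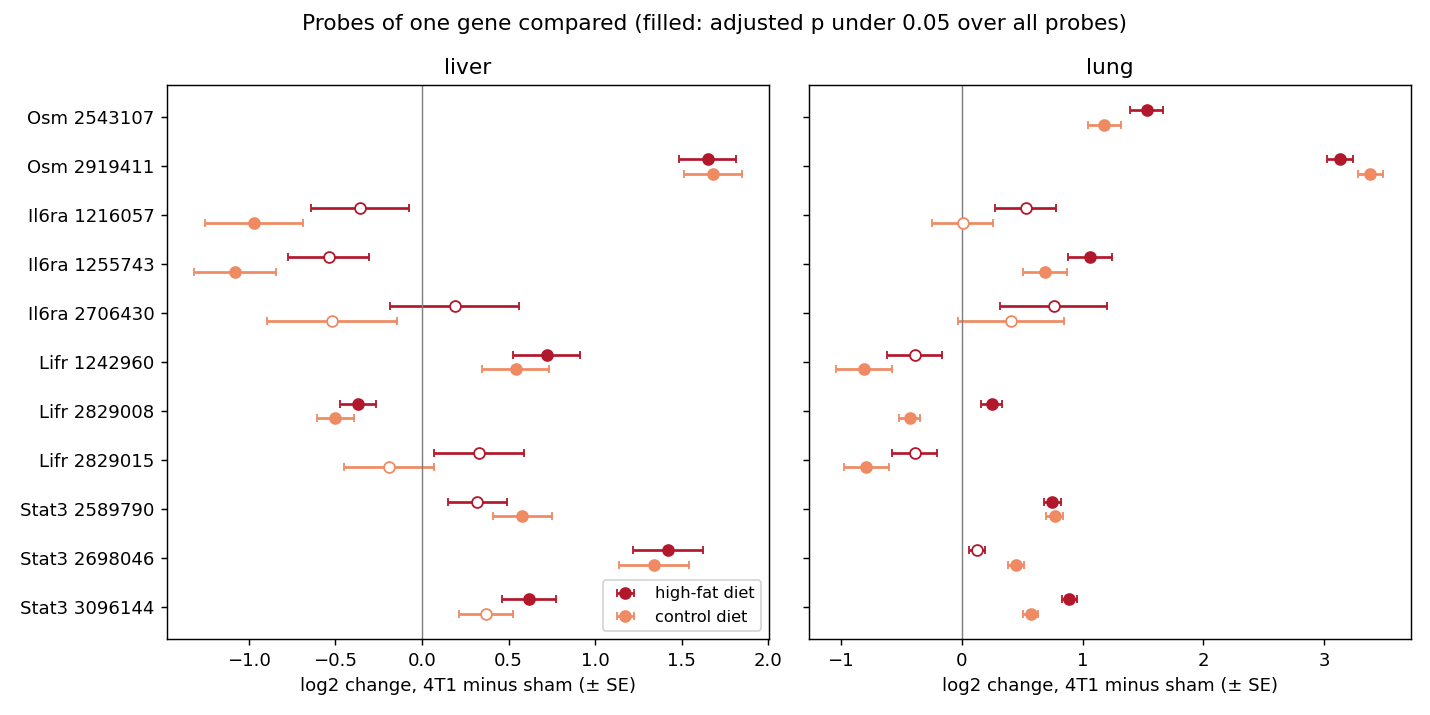
Log2 change for 4T1 minus sham (x axis, points with SE bars) of each tested probe of Osm, Il6ra, Lifr and Stat3 (rows) in liver (left) and lung (right), on the high-fat diet (dark) and the control diet (light). Filled points have an adjusted p under 0.05 over all probes; in liver Lifr probe ILMN_1242960 lies right of 0 and ILMN_2829008 left of it (right of it under median scaling, at 0.65 and 0.38), and in lung the brightest Stat3 probe, ILMN_2698046, lies left of the other Stat3 probes.

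Stat3, the transcription factor that the receptors activate, rose in liver. It read 11.25, 11.15 and 11.52 on the 4T1 liver arrays of the high-fat diet, against 9.40, 10.17 and 10.10 on the sham arrays. In control-diet livers it read 11.32, 11.38 and 11.36 after 4T1 injection, against 9.93, 10.32 and 9.77 after sham injection. The 4T1 arrays lay close together above the sham arrays, which were more spread. The increase was 1.42 ± 0.202 on the high-fat diet (adjusted p = 0.000287) and 1.34 ± 0.202 on the control diet (adjusted p = 0.000478), or 2.67-fold and 2.54-fold. The other Stat3 probes in liver rose less, by 0.62 for ILMN_3096144 on the high-fat diet and by 0.58 for ILMN_2589790 on the control diet, while their remaining differences of 0.32 and 0.37 were not called. In lung the brightest probe rose by 0.45 ± 0.0628 on the control diet (adjusted p = 0.000157), and differed by 0.13 without a call on the high-fat diet (adjusted p = 0.114). Under median scaling these were 0.03 and -0.26, beside -0.50 and -0.48 over all genes. The other lung probes rose on both diets, by 0.75 and 0.89 on the high-fat and 0.77 and 0.57 on the control diet. On the high-fat diet ILMN_3096144 was at 10.05, 10.16 and 10.08 after 4T1 injection, against 9.21, 9.18 and 9.22 after sham injection.

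Cebpb and Cebpd, which encode C/EBP proteins that act with STAT3 on acute phase genes, differed by tissue and diet. Cebpb was bright in all groups. In lung it read 13.90, 14.13 and 14.13 on the 4T1 arrays of the high-fat diet, against 13.57, 13.54 and 13.46 on the sham arrays. In control-diet lungs it read 14.05, 13.96 and 14.02 after 4T1 injection, against 13.64, 13.60 and 13.64 after sham injection. All 4T1 lungs lay above all sham lungs. It rose there by 0.53 (adjusted p = 8.45e-05) and 0.38 (adjusted p = 0.000851). Under median scaling the changes were 0.17 and -0.01, neither of them called, beside -0.48 and -0.50 over all genes. In liver Cebpb read 13.13, 13.33 and 13.44 on the 4T1 arrays of the high-fat diet, against 12.53, 12.89 and 12.62 on the sham arrays, without overlap, a rise of 0.62 ± 0.114 (adjusted p = 0.00128). On the control diet it was at 13.57, 13.34 and 13.35 after 4T1 injection, against 13.62, 13.55 and 13.65 after sham injection, a difference of -0.19 that was not called (adjusted p = 0.21) and was 0.45 under median scaling. That 0.45 stands beside 0.66 over all genes, or -0.21 relative to it. Cebpd read 8.02, 7.68 and 7.90 on the 4T1 liver arrays of the control diet, against 7.57, 7.50 and 7.30 on the sham arrays, without overlap, and rose by 0.41 (adjusted p = 0.00793). On the high-fat diet its liver difference was 0.21 (adjusted p = 0.104), and 1.22 with a call under median scaling (adjusted p = 1.22e-05), beside 0.73 over all genes, or 0.49 relative to it. In lung Cebpd read 9.74, 9.67 and 9.46 on the 4T1 arrays of the high-fat diet, against 9.90, 9.82 and 9.98 on the sham arrays, also without overlap, a fall of 0.28 on the log2 scale (adjusted p = 0.0387). That call was lost without sham array 1 or 3 or 4T1 array 2 or 3 of this diet (adjusted p up to 0.142). On the control diet its lung difference was 0.04 (adjusted p = 0.76).

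**Figure D4:**
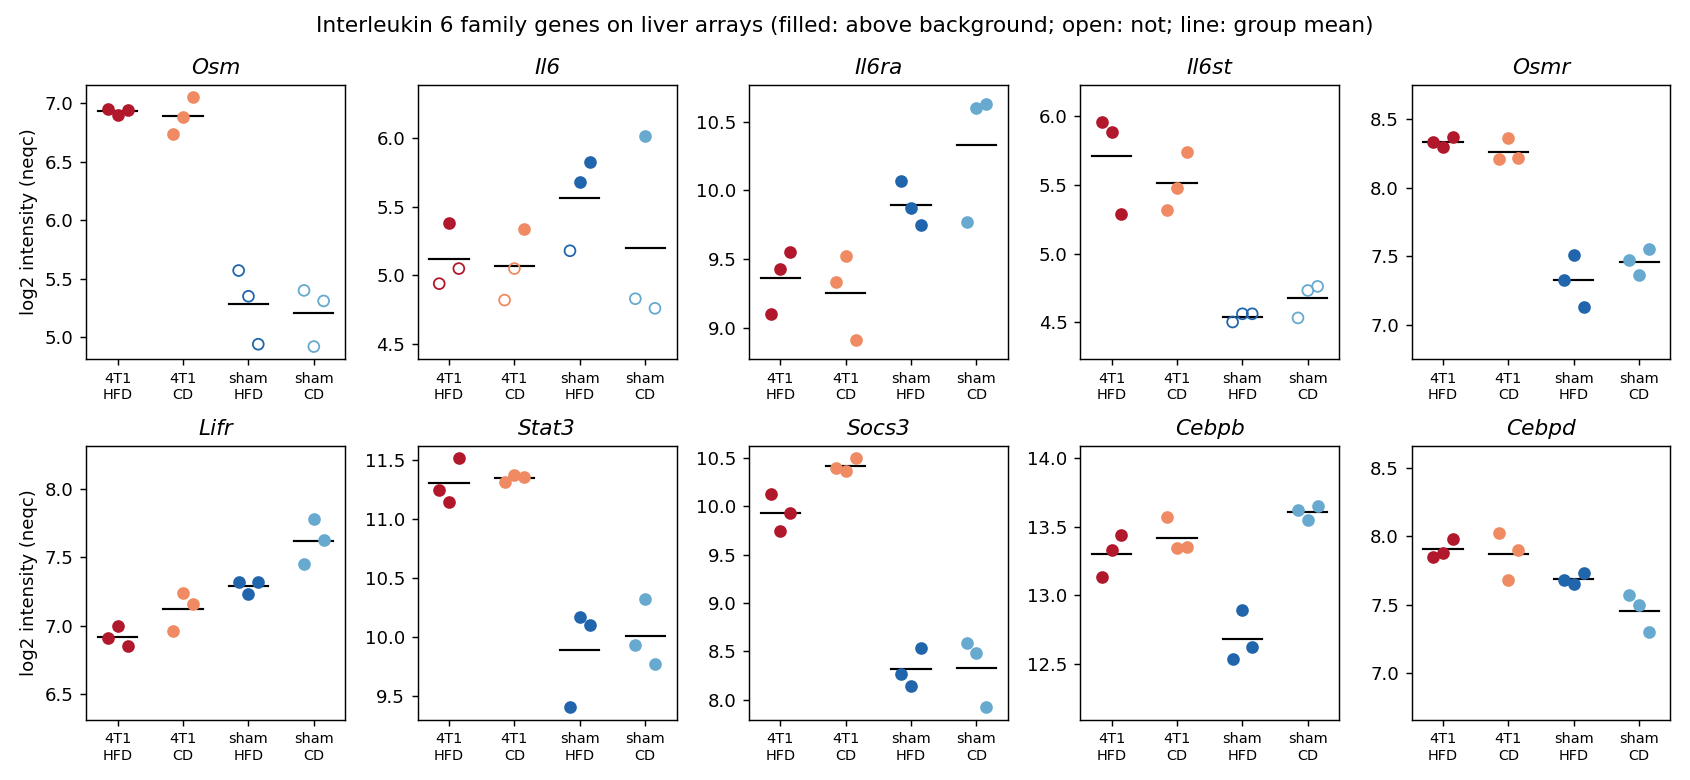
Log2 intensity (y axis, a separate range per panel) of each gene's brightest probe on the 12 liver arrays, by group (x axis, HFD high-fat diet, CD control diet), with points for arrays, open where not above background, and lines for group means. Osm and Il6st are open on all 6 sham arrays, Socs3, Osmr and Stat3 separate the 4T1 from the sham arrays, and Cebpb is lowest on the sham arrays of the high-fat diet.

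Diet on its own moved few members. In sham liver 1 gene, Cebpb, was lower on the high-fat diet, where 11.2% of all genes were called and 5.13% were lower. Its values were 12.53, 12.89 and 12.62 on the high-fat diet, against 13.62, 13.55 and 13.65 on the control diet, without overlap. The fall was 0.93 ± 0.114 on the log2 scale (adjusted p = 0.000596), or 1.9-fold. Increases made up 54% of all calls here, and 20.7% under median scaling, where Cebpb was at -1.09. After 4T1 injection the diet difference of liver Cebpb was -0.12 (adjusted p = 0.894), and the interaction of diet and injection was 0.81 ± 0.161 (adjusted p = 0.0491), where 0.944% of genes were called (0.486% higher, 0.458% lower). Of these interaction calls 51.5% were positive, against 75.5% under median scaling. This interaction was lost in 10 of the 12 fits that left out 1 array, with adjusted p up to 0.151. No member was called between the diets in 4T1 liver (0.303% of genes called by limma), where 1 member, Socs3, had an unadjusted p under 0.05. The share of all genes at that unadjusted threshold was not counted. Socs3 was at 10.13, 9.75 and 9.93 on the high-fat diet and at 10.40, 10.37 and 10.50 on the control diet, a difference of -0.49 (95% confidence interval -0.86 to -0.11, adjusted p = 0.368) without overlap of the arrays.

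In sham lung Lifr was lower on the high-fat diet, where 1.67% of genes were called and 0.706% were lower. The probe was at 7.09, 7.40 and 7.28 on the high-fat diet, against 7.68, 7.73 and 7.73 on the control diet, a fall of 0.45 on the log2 scale (adjusted p = 0.0279). The call was lost in 5 of 6 fits that left out 1 of these arrays, with adjusted p up to 0.0997. Of the 9 genes measured, 6 had an unadjusted p under 0.05 there, a threshold at which the share of all genes was not counted. Of these 6, 5 missed the adjusted threshold. One of them was Socs3, with 10.72, 10.58 and 10.53 on the high-fat diet against 10.39, 10.41 and 10.11 on the control diet (difference 0.31, adjusted p = 0.12). On these same arrays 7 of 14 neutrophil markers were higher on the high-fat diet, with a list mean of 8.90 to 9.13 on the high-fat diet against 8.57 to 8.64 on the control diet, and their part in the Socs3 values was not tested. In 4T1 lung no member and no gene at all was called between diets by limma (0%), and 2 members, Lifr and Stat3, had an unadjusted p under 0.05. No member was called for the interaction in lung (0.0863% of genes called, 0.0157% higher and 0.0706% lower). There 5 members had an unadjusted p under 0.05 and Lifr came nearest to a call with 0.68 (adjusted p = 0.0747). For the unadjusted counts in 4T1 lung and for the interaction the share of all genes was not counted either.

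The injection effect itself differed between the tissues for all 9 genes measured in both, in a fit that took both tissues at once (24 arrays, 1 normalization, mean of the diets), where 60.5% of 10366 genes were called, 29.7% as higher in lung and 30.8% as lower. The injection effect on its own was called for 56.4% of genes in lung (23.5% higher, 32.8% lower) and for 66.2% in liver (30.6% higher, 35.6% lower). Osm rose in both tissues, with fitted effects of 3.39 in lung and 2.04 in liver and a fitted difference of 1.35 (adjusted p = 8.97e-05). Its probe was not above background on any sham liver array, nor was that of Il6st. The liver effects of both genes may thus be smaller or larger than fitted, and it is not shown that Osm rose more in lung. Il6ra rose by 0.92 in lung and was lower by a log2 change of -0.73 in liver, a difference of 1.65 (adjusted p = 2.36e-06), which was 0.35 and not called under median scaling. Relative to the all-gene median of -1.19 under that scaling, the Il6ra difference was 1.54. Socs3 rose by 2.27 in lung and 1.67 in liver, a difference of 0.60 ± 0.13 (adjusted p = 0.000599) that became -1.10 under median scaling. Both tissues showed the increase under either scaling, but which tissue showed more depended on it. Il6st had effects of -0.32 in lung (not called) and 1.70 in liver, a fitted difference of -2.02 (adjusted p = 2.88e-06). The fit within liver had given 1.17 on the high-fat and 0.83 on the control diet, so its size near background depends on the normalization. Osmr had effects of 0.04 in lung (not called) and 0.82 in liver (difference -0.78, adjusted p = 4.83e-08), and Stat3 rose by 0.32 in lung and 1.19 in liver (difference -0.87, adjusted p = 3.57e-05). The Stat3 difference held for its brightest probe, whereas the mean of its probes gave -0.04 (adjusted p = 0.688). Under median scaling the median of all genes in this comparison was -1.19, and 2.72% of the calls were higher in lung, against 49.1% under quantile normalization.

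Sham arrays showed how the tissues differed at the outset, with 8 of 9 members called between lung and liver, where 85.6% of all genes were (42.6% higher in lung, 42.9% lower). On the common scale Osmr averaged 11.15 in sham lung and 8.27 in sham liver, a difference of 2.88 ± 0.0516 (adjusted p = 2.94e-20), or 7.34-fold. Socs3 and Stat3 were higher in sham lung by 0.89 each and Cebpd by 0.83. Il6st and Osm were called higher in sham lung too, but their probes were not above background in sham liver, so the fitted differences of 1.46 and 1.36 are no measured sizes. Il6ra was lower in sham lung at -1.65, and Lifr was lower there at -1.40, but 0.30 under median scaling. Cebpb did not pass the threshold (0.07, adjusted p = 0.312), but did under median scaling (0.46, adjusted p = 1.57e-05). The all-gene median was 1.23 here under median scaling, and the share of calls higher in lung was 83.4%, against 49.8% under quantile normalization. Across the 8 groups the mean of Socs3 ran in the order sham liver on the high-fat (9.10) and control diet (9.11), which overlapped, sham lung on the control (9.84) and high-fat diet (10.16), 4T1 liver on the high-fat (10.56) and control diet (10.99), and 4T1 lung on the high-fat (12.24) and control diet (12.30), which overlapped. The other neighbouring groups in that order did not overlap. For Osmr the order ran from sham liver (8.21 and 8.33) through 4T1 liver (9.06 and 9.12) to all lung groups (11.06 to 11.23), and for Osm the 4T1 liver means of 7.82 and 7.85 lay between those of sham lung (7.03 and 7.28) and 4T1 lung (10.54 and 10.54).

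Genes downstream of the pathway were followed through lists. Of 26 measured liver acute phase genes known as interleukin 6 targets, 20 rose on the high-fat diet with 1 lower, and with a median change of 0.96 beside -0.06 over all genes. On the control diet 20 rose, with a median of 0.74 beside -0.03. Of all liver genes 21.0% were higher and 27.7% lower on the high-fat diet, and 20.5% higher and 22.8% lower on the control diet. Under median scaling 24 of the acute phase genes were higher and 1 lower, and 23 higher on the control diet, with medians of 1.72 and 1.38 beside 0.73 and 0.66 over all genes. In lung 24 of these genes were measured, of which 6 were called higher with 3 lower (high-fat, where 53.9% of all genes were called) and 5 higher with 3 lower (control diet, 52.9%), while median scaling gave 5 higher with 8 lower and 4 higher with 8 lower. Lung Saa3, a serum amyloid A gene made outside the liver too, rose by 3.11 and 2.96. Hamp2, a hepcidin gene, fell by 2.91 in lung on the high-fat diet, where hepatocyte markers also fell.

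Early response and survival genes known as STAT3 targets were more often called higher than lower in both tissues under quantile normalization. In liver 9 of 19 were higher and 2 lower on the high-fat diet (median 0.36) and 7 rose on the control diet (median 0.37), beside 21.0% and 20.5% of all genes higher and all-gene medians of -0.06 and -0.03. Under median scaling 16 and 15 were higher, where nearly all liver calls were increases. They included Gadd45g, a stress-response gene, at 1.47 on the high-fat diet, and Junb, an AP-1 transcription factor, at 1.14 on the control diet. In lung 12 were higher and 1 lower on the high-fat diet (median 0.42) and 12 higher and 2 lower on the control diet (median 0.29), beside 22.6% and 20.6% of all genes higher and medians of -0.08 and -0.09, but under median scaling 8 rose and 6 fell, and 8 rose and 5 fell, with medians of -0.04 and -0.11. The interleukin 1 receptor antagonist gene Il1rn rose in lung by 1.56 and 1.87, and Bcl3, a co-regulator of NF-kappaB, by 1.58 and 1.52, and both stayed above 1 under median scaling. Bcl6, a transcriptional repressor that STAT3 and STAT5 regulate, fell by 1.27 in liver on the high-fat diet (-0.38 and not called under median scaling) but rose by 1.02 there on the control diet.

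The counts of called genes in the smaller lists stand beside 48.8% and 43.3% of all genes called in liver and 53.9% and 52.9% in lung on the high-fat and control diets, and several lie near those shares. The remaining ligands of the family were seldom measured, with 2 of 9 in liver and 5 of 9 in lung. In liver 1 rose and 1 was lower on each diet, and in lung 2 rose and 1 was lower on each diet. Among them Ebi3, which encodes a subunit of heterodimeric cytokines, rose in lung by 3.23 on the high-fat and 3.25 on the control diet, at means of 10.57 and 10.54 after 4T1 injection against 7.34 and 7.29 after sham injection. In liver Ebi3 rose by 0.74 and 1.16. Of 8 measured Janus kinases and other STAT factors, 4 rose in liver on the high-fat diet and 3 on the control diet, with Jak3, a kinase of blood cells, at 0.85 and 0.45. In lung 4 were higher and 1 lower on the high-fat diet, with 2 higher and 1 lower on the control diet, while median scaling gave 1 higher and 5 lower, and 2 higher and 6 lower. Jak3 rose there by 1.03 and 0.89, and Jak1, a kinase that pairs with the shared chain, was lower at -0.38 and -0.31. Of 14 other inhibitors and regulators 3 were higher and 5 lower in liver on the high-fat diet and 1 higher and 5 lower on the control diet, a count that median scaling turned to 12 and 11 higher and none lower. In lung 4 were higher and 4 lower on the high-fat diet, with 2 higher and 6 lower on the control diet, and under median scaling 2 higher and 10 lower, and 2 higher and 11 lower. Ptpn6, a phosphatase of blood cells, rose in lung by 1.73 and 1.91. The SOCS gene Socs2 fell there by 0.80 on the control diet and Socs4 rose by 0.67 on the high-fat diet (0.16 under median scaling). Among 4 other measured C/EBP factors Cebpe, which acts in granulocyte maturation, was called higher in both tissues on both diets. Its probe was above background on every 4T1 array, on 1 of 3 sham lung arrays of the high-fat diet and on no other sham array. It was thus kept through 4T1 arrays, and the direction of these calls adds no support. The rise was at least 19.2-fold in control-diet lung and at least 6.65-fold in high-fat liver. The fitted changes of 4.62 in high-fat lung and 3.5 in control-diet liver are no measured sizes. Of the genes that shed receptors from the cell surface, Rhbdf2 rose in lung by 0.84 (0.38 and not called under median scaling) and 0.95, while Adam17 rose by 0.23 and 0.38 but was at -0.18 and -0.07 under median scaling. Rhbdf1, the third measured gene of that list, fell in lung by 0.19 on the high-fat diet (adjusted p = 0.0368) and by 0.42 on the control diet (adjusted p = 0.000569).

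**Figure D5:**
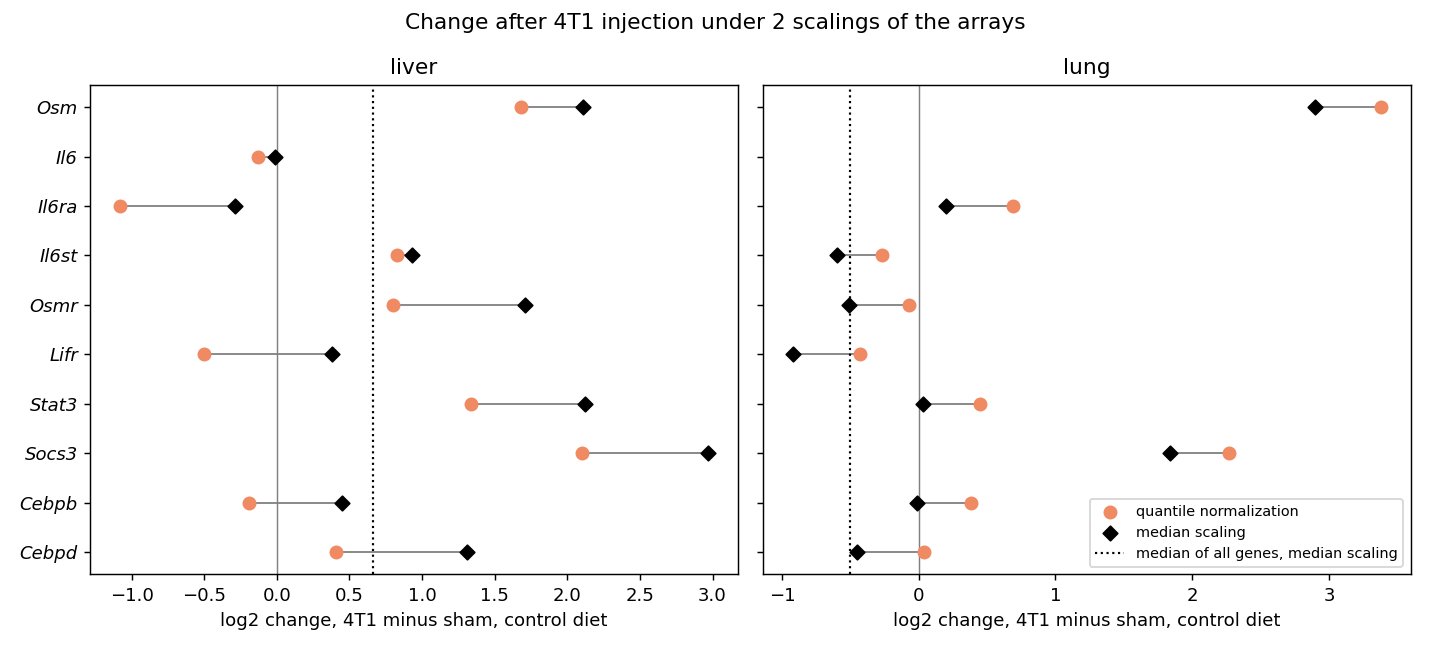
Log2 change for 4T1 minus sham on the control diet (x axis) of each gene (rows) in liver (left) and lung (right) under quantile normalization (circles) and median scaling (diamonds), with the median of all genes under median scaling as a dotted line (0.66 in liver, -0.50 in lung). Socs3 and Osm stay right of 0 in both tissues, while Lifr and Cebpb in liver and Cebpb and Cebpd in lung change side.

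The genes whose pattern over the 12 arrays of a tissue was most like that of Socs3 were found by the root mean square difference between profiles, each centred on its own mean. In liver these were Csf2rb2, a receptor subunit gene of the interleukin 3 family (0.206), Wfdc17 (0.222), the interleukin 1 beta gene Il1b (0.24), the glycolysis regulator Pfkfb4 (0.248) and Apcs, the serum amyloid P gene (0.253), beside a median of 1.01 over all genes. In lung they were the leukocyte surface genes Cd52 (0.0974) and Cd37 (0.114), with Lpcat2 (0.107), Snx20 (0.108) and the protease gene Ctse (0.115), beside a median of 1.11. The arrays of a tissue share the 4T1 and sham contrast, so these distances are a description.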

How the data were processed

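Probe intensity values were deposited without normalization and ranged from 94.5873 to 71184.1. GenomeStudio 2009.2 is named for them, per the submitters' processing notes. Per the file headers each has a detection p-value, which the authors deposited and which ranks each signal among control probes. The deposited log2 values of the series were set against the intensities, and 99.9997% lay within 0.01 of quantile-normalized log2 signals computed per tissue without background correction, and 3 lay further away. No slide layout is given in the sources used here.

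Each tissue's intensities were background-corrected and quantile-normalized by limma's neqc (limma 3.58.1, R 4.3.3, version 1.17.8 of data.table, offset 16, controls inferred from detection p-values). Probes with 1 symbol (34885 of 45281) and a detection p under 0.05 on at least 3 of 12 arrays were kept, in each tissue for the 24-array fit, and a gene was read by its brightest kept probe. The 12 arrays of a tissue entered 1 limma fit (lmFit, eBayes) with Benjamini-Hochberg adjustment over all genes and a threshold of 0.05. On simulated data a log2 change of 1 was called for 83% of changed genes in liver and 90% in lung on the control diet. The members and lists were chosen with earlier results of these data known. All 10 members are named, with at most 3 called genes per list and comparison by size of change, and the 5 genes nearest to Socs3. Replicate numbers were not taken as pairs. Alternatives were other normalizations, filters, probe rules, array weights, a replicate block and leaving out each array. Promoters came from RefSeq, build GRCm38.p6.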

Additional observations from a re-analysis of the deposited data

Results flagged for a closer look

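The injection response of liver Cebpb differed between diets by an interaction of 0.81 on the log2 scale, close to the threshold (limma's adjusted p = 0.0491). The call was lost in 10 of 12 fits that left out 1 array and under 6 alternatives, among them median scaling (0.88, adjusted p = 0.0923).

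For 9 genes the injection effect differed between lung and liver in the 24-array fit, where 60.5% of all genes did. The lung minus liver differences on the log2 scale were 1.65 for Il6ra, 1.35 for Osm, 0.60 for Socs3, 0.33 for Cebpb and 0.31 for Lifr, and -2.02 for Il6st, -0.87 for Stat3, -0.78 for Osmr and -0.41 for Cebpd, with limma's adjusted p from 4.83e-08 (Osmr) to 0.00451 (Lifr). Median scaling turned Socs3 (-1.10), Cebpb (-0.81) and Lifr (-1.09) and ended the call of Il6ra (0.35, adjusted p = 0.0711). These values stand beside an all-gene median of -1.19 under that scaling. Il6st and Osm were not above background in sham liver, so the sizes of their liver changes, and of these differences, are not measured exactly.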

How the results depend on the processing

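Across the comparisons and alternatives, 183 recomputed counts of called members stayed within 1.5 times of the reported count and 25 did not. Median scaling, which moved the all-gene medians to 0.73 and 0.66 in liver and -0.48 and -0.50 in lung (high-fat and control diet), changed most. It left 0 lower calls in liver on both diets (1 on the high-fat and 2 on the control diet otherwise), 3 higher and 5 lower in lung on the high-fat diet, 2 higher and 3 lower in lung on the control diet, 1 higher and 7 lower for the lung minus liver injection effect, 1 lower for sham lung minus liver, and 2 calls for diet in sham liver. It turned the sign of Cebpb in liver on the control diet (0.45) and in lung on the control diet (-0.01), of Cebpd in lung on the control diet (-0.45), of Lifr in liver on the high-fat (0.65) and control diet (0.38) and in lung on the high-fat diet (-0.24), and of Osmr (-0.28) and Stat3 (-0.26) in lung on the high-fat diet, and it moved Il6ra in liver on the high-fat diet to 0.38, called under neither scaling. In lung minus liver it turned the injection effects of Cebpb (-0.81), Lifr (-1.09) and Socs3 (-1.10) and the sham difference of Lifr (0.30). The mean of a gene's probes turned Lifr in liver (0.22) and lung (-0.18) on the high-fat diet and its lung minus liver injection effect (-0.54), and left 1 lower call in liver on the control diet, 0 on the high-fat diet and 0 calls for diet in sham lung. Deposited log2 values, and a fit of only the arrays compared, each gave 2 lower calls in liver on the high-fat diet, and the fit of only the arrays compared gave 0 calls for diet in sham lung. A filter requiring detection on all arrays gave 2 calls for diet in sham liver and 1 for the lung interaction (Lifr). The liver interaction of Cebpb was lost (0 calls) with array weights, every probe tested, the mean of probes, median scaling, no detection filter and the replicate block, with adjusted p from 0.0504 to 0.111. The replicate block otherwise gave 2 lower calls in lung on the high-fat diet, but nothing in the labels pairs arrays by number, and correlations of same-numbered arrays ran only from -0.133 to 0.0508 in liver and -0.184 to 0.291 in lung. Leaving out 1 array gave 1 to 3 calls for diet in sham liver (3 without control-diet sham array 1, adding Il6ra and Lifr), 0 to 1 for the liver interaction, 0 to 1 for diet in sham lung and 4 to 6 in lung on the high-fat diet (4 to 5 higher, 0 to 1 lower). In that last comparison Lifr lost its call without sham array 1 or 3 or 4T1 array 2 (adjusted p up to 0.102). In liver on either diet and in lung on the control diet these counts stayed as reported. Genes near background, Il6, Il6st and Osm in liver, are limited by signal close to the detection limit, and the causes of the shifts were not tested.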

Other observations

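Some genes around the pathway responded to diet in sham liver although the members other than Cebpb did not pass the test. Of all genes 11.2% were called in that comparison, 6.02% as higher and 5.13% as lower. Bcl6 was higher on the high-fat diet, with means of 10.85 on the high-fat and 8.99 on the control diet (log2 change 1.86 ± 0.185, limma's adjusted p = 0.000168). From the same list of STAT3 targets Il1rn (-1.62, adjusted p = 0.00349) and Pim3 (-1.17, adjusted p = 0.000882) were lower. Il1rn was above background on 2 of 3 of these high-fat arrays. Cish, a relative of Socs3 induced by STAT factors, was lower, with means of 9.18 on the high-fat and 10.22 on the control diet (-1.05 ± 0.145, adjusted p = 0.00121). After 4T1 injection the diet differences were -0.43 for Bcl6 (adjusted p = 0.502) and 0.80 for Cish (adjusted p = 0.0518), and the interactions were -2.29 for Bcl6 (adjusted p = 0.00338) and 1.84 for Cish (adjusted p = 0.00328). In sham liver the acute phase gene Orm1 (-1.05) and the metallothionein genes Mt1 (-0.99) and Mt2 (-1.56, above background on 1 of 3 high-fat arrays) were lower on the high-fat diet as well. In 4T1 liver the hepcidin gene Hamp2 was lower on the high-fat diet, with means of 13.55 on the high-fat and 14.65 on the control diet (-1.10 ± 0.16, adjusted p = 0.0196).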
